A study of Mus musculus with 26 samples.

Results

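The metalloproteinases of the MMP, ADAM and ADAMTS families, the ADAMTS-like proteins and the tissue inhibitors of metalloproteinases (TIMPs) were described across Smyd3 knockdown, SMYD3 overexpression and differentiation time in mouse C2C12 myoblasts. Members were all protein-coding genes whose GENCODE M21 symbol is Mmp, Adam, Adamts, Adamtsl or Timp followed by a number, with at least 10 counts in at least 3 of the 26 libraries. The rule left 50 of 76 such genes, out of 55341 genes listed: 13 of 21 Mmp, 14 of 27 Adam, 14 of 19 Adamts, 5 of 5 Adamtsl and 4 of 4 Timp genes. The rule uses symbols and counts and no difference between conditions, but it was set with earlier results of these data known.

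C2C12 is a mouse myoblast line that exits the cell cycle, fuses and forms myotubes once serum is withdrawn. Poly(A) RNA of confluent cells in growth medium (0 h) and of cells kept for 24 h in differentiation medium was sequenced. In the siRNA experiment cells received a control siRNA (siCtrl) or one of a pair of siRNAs against Smyd3 (siSMYD3#1, siSMYD3#2), with 3 libraries per siRNA and time. In the overexpression experiment a line infected with the empty retrovirus (vector) was compared with SMYD3 CL5, 1 clone carrying a retrovirus for HA-FLAG-tagged SMYD3, with 2 libraries per line and time. Each siRNA group held 1 library made from TRIzol RNA (passage 11 cells) and 2 made from NucleoSpin RNA (passage 14 cells), so extraction and passage cannot be told apart, and all 8 overexpression libraries were TRIzol. Totals ran from 14315193 to 60398170 counts in the siRNA libraries and from 21124675 to 67853386 in the overexpression libraries. The study's methods describe the libraries of a group as biological replicates. The p-values measure the spread between these libraries.

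MMPs, ADAMs and ADAMTS enzymes cut proteins in the extracellular matrix or at the cell surface, and most depend on a zinc ion held by histidines in the catalytic site. Secreted MMPs degrade matrix, membrane-type MMPs act at the cell surface, many ADAMs release the outer part of membrane proteins such as Notch ligands and growth factor precursors, and ADAMTS enzymes act on proteoglycans, procollagens and fibrillin-rich matrix. ADAMTS-like proteins have no catalytic domain, and TIMPs bind and block the enzymes. In muscle these proteins are known for remodelling the matrix around myoblasts while they migrate, align and fuse. The zinc-binding histidine motif (HExxHxxGxxH, x being any residue), searched in the longest reading frame of each reference transcript, was found in 31 of 50 members. These were all 13 MMPs, Adam8, Adam9, Adam10, Adam12, Adam15, Adam17, Adam19 and Adam21, and 10 ADAMTS genes. With N also allowed for the G, a search added after the first was seen, it was found in 35, the further 4 being Adamts1, Adamts4, Adamts9 and Adamts15. No match lay in Adam4, Adam5, Adam11, Adam22, Adam23, Adam32, the ADAMTS-like genes or the TIMPs.

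Promoter sequences (the 250 bases before the annotated start, RefSeq, build GRCm38.p6) were matched for 31 of 50 members. Each member's promoter nearest its GENCODE start was taken, a choice not made for the set of all promoters below. For Mmp11 and Timp2 the RefSeq start lay 3994 and 329 bases from the GENCODE start. Shown here are those of 4 members that changed with time or siRNA: Mmp10 (chr9:7502092-7502341), Mmp15 (chr8:95352046-95352295), Adamts12 (chr15:11064523-11064772) and Adamts17 (chr7:66839485-66839734), each on the plus strand. Capitals mark E-boxes (CANNTG) and AP-1 sites (TGACTCA or TGAGTCA), searched on both strands.
Mmp10: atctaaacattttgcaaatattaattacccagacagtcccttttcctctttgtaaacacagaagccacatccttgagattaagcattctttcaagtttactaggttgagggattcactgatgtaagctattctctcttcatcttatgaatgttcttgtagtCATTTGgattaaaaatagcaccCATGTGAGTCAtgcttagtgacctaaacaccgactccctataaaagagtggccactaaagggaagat
Mmp15: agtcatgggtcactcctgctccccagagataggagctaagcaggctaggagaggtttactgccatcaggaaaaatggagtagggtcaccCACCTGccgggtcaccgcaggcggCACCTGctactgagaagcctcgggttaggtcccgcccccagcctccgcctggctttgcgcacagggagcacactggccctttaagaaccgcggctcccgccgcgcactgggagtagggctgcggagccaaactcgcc
Adamts12: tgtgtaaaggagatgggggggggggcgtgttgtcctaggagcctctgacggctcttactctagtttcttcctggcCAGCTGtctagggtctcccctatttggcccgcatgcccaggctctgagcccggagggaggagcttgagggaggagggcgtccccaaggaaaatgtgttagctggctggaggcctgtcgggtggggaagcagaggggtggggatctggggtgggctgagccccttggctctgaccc
Adamts17: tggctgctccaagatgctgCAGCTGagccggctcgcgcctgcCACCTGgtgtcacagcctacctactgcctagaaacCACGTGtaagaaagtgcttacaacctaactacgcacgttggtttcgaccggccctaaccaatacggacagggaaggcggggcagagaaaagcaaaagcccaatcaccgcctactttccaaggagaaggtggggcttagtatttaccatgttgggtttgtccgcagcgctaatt
Mmp10 held an AP-1 match beginning 63 bases before the start that shared 2 bases with an E-box. In Adamts12 the E-box began 175 bases before the start. Among the 31 promoters AP-1 matches lay in 2 (Mmp10 and Adam19), or 6.5% against 4.46% of all 32851 promoters, and CANNTG lay in 21, or 67.7% against 66.2%. Its CAGCTG form lay in 9, or 29.0% against 13%. The letters CCCTCC and GAGGGG, which the study named as SMYD3 binding sequences, lay in 19 (61.3% against 35.2%) and 12 (38.7% against 29.6%). A match describes the letters only, and promoters of the remaining members were not analysed here. On the chromosomes, Adamts1 and Adamts5 are neighbours on chromosome 16, 53.1 kb apart with 0 coding genes between them.

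Knockdown was read first from Smyd3 itself, in CPM (a gene's counts scaled to library size by TMM). It was at 17.8 to 20.7 CPM in siCtrl at 24 h and at 5.37 to 9.65 in siSMYD3#2, a log2 fold change of -1.51 (SE 0.17, adjusted p = 5.06e-05, edgeR quasi-likelihood test). The libraries labelled siSMYD3#1 held 15.1 to 19.3 CPM, and the difference from siCtrl of -0.24 (SE 0.16, adjusted p = 0.414 in the same edgeR test) was within the spread between libraries. SMYD3 CL5 was at 21 to 24.3 CPM against 17.1 to 18.2 in vector at 24 h, and its difference of 0.36 (adjusted p = 0.671, edgeR) did not pass either. Smyd3 counts therefore do not show the labelled change for siSMYD3#1 or for SMYD3 CL5. In these libraries every direction given for them rests on the labels. Outside these counts, the study assayed SMYD3 protein by western blot and Smyd3 mRNA by qPCR after siRNA transfection. It checked tagged SMYD3 in its clones by western blot and immunofluorescence. Whether reads of the tagged transgene reach the mouse gene was not tested.

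The cells carried myoblast markers (Myod1, Myf5, Des, Cdh15 and Itga7 summed to 304 to 2610 CPM), while 5 macrophage and leukocyte markers summed to 0.0606 to 1.69 CPM, with the macrophage marker Adgre1 at 0 in all 26 libraries. Csf1r, of the same list, was detected in every library with at most 46 counts. Of 4 neutrophil markers S100a9 was at 0 throughout and Mpo reached 5 counts. Of 4 adipocyte markers Lep was at 0 throughout and Plin1 reached 6 counts. Among 4 endothelial markers Kdr reached 57 counts (2.37 CPM) and Tek 43 (1.24 CPM). Of the 2 endothelial markers tested 1 rose with time in siCtrl (background 14.6%). Of 4 fibroblast markers Pdgfra (3.09 to 30.3 CPM) and Dpt (0.429 to 21.2 CPM) were detected in every library, Thy1 had at most 2 counts and Tcf21 was at 0. Of 6 differentiation markers all 6 rose with time in siCtrl, and at 24 h 6 were lower in the libraries labelled siSMYD3#1 and 5 in siSMYD3#2. The sum of Myog, Myh3, Ckm, Mymk, Acta1 and Tnnt3 in siCtrl went from 5.78 to 7.51 CPM at 0 h to 422 to 1350 at 24 h, and at 24 h was 53.9 to 109 in siSMYD3#1 and 193 to 217 in siSMYD3#2. It was 30.7 to 42.7 in vector and 995 to 1030 in SMYD3 CL5, where edgeR called 0 of the 6 markers at 24 h and 1 (Myog, higher) at 0 h. At 0 h the SMYD3 CL5 libraries held 85.9 and 498 CPM of these markers, so they differed from each other before serum withdrawal. The part of differentiation state in the protease values below was not tested, and in bulk RNA fewer cells of a state and less RNA per cell cannot be told apart.

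Summed over the 50 members, the families took 0.221 to 0.251% of all counts in siCtrl at 0 h and 0.327 to 0.368% at 24 h. Per kb of exon the most abundant members in siCtrl at 24 h were Timp2 (223 CPM per kb), Timp1 (181), the membrane-type enzyme Mmp14 (82.1), Adam9 (47.1) and the aggrecan-cleaving enzyme Adamts4 (36.7). At 0 h the order was Timp1 (314), Timp2 (143), Mmp14 (54.6), Adam9 (50.1) and the Notch sheddase Adam10 (31.2). Timp1, Timp2 and Mmp14 thus led the order at both times. At the other end Adamts15 was at 0.0131 CPM per kb at 24 h. Fits covered 46 members in the siRNA experiment (Adam21, Adam32, Adamts15 and Timp4 were too low) and 49 in the overexpression experiment (all but Mmp12).

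**Figure D1:**
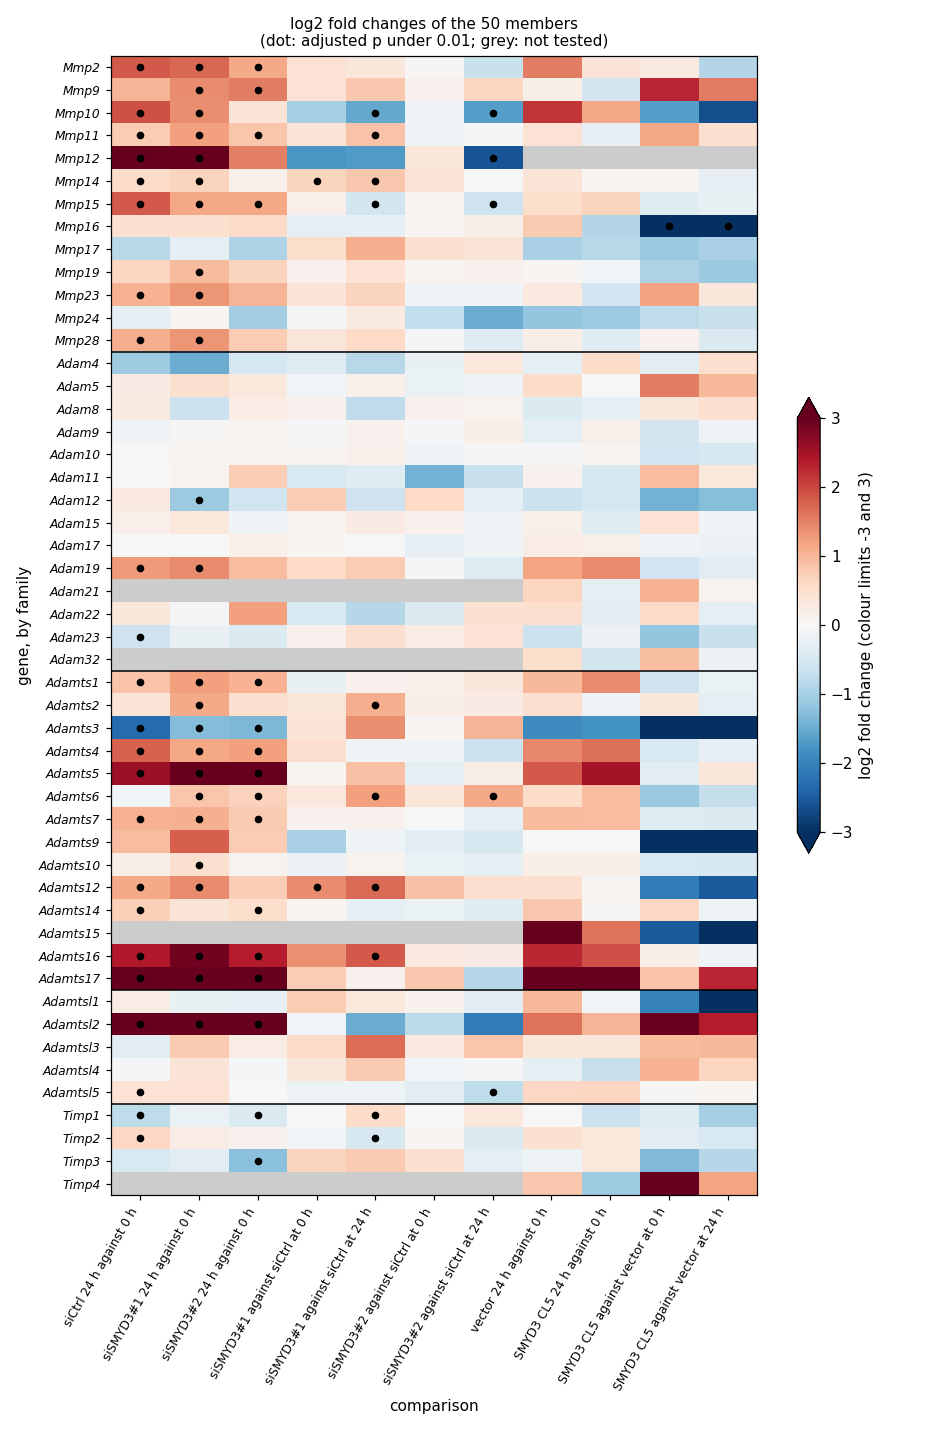
Log2 fold changes of the 50 members (rows, grouped by family) in 11 comparisons (columns), red for higher and blue for lower, with colours limited at -3 and 3, dots at adjusted p under 0.01 and grey where a gene was not tested. Dots fill the columns of time in the siRNA experiment, with 23 in siCtrl, and only Mmp16 carries dots in SMYD3 CL5 against vector.

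Differentiation in siCtrl was accompanied by a rise in matrix-acting enzymes. Of 46 members tested 20 rose and 3 fell at adjusted p under 0.01 (edgeR quasi-likelihood test with Benjamini-Hochberg adjustment over 15820 genes), against a background of 14.6% of all genes called up and 14.8% called down. By family, 8 of 13 MMPs and 8 of 13 ADAMTS genes rose, against 1 of 12 ADAMs (Adam19). Of the ADAMTS-like genes 2 of 5 rose. Timp2 rose and Timp1 fell. The median log2 change was 0.45 over the members and 0.03 over all genes. Among tested members with the zinc motif in its wider form 17 of 33 rose and 1 fell, and among those with none, TIMPs aside, 2 of 10 rose and 1 fell.

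The steepest rise was in Adamts17, an enzyme known for its role in fibrillin-rich matrix. It was at 0.147, 0 and 0.154 CPM at 0 h and 23.7, 8.90 and 8.29 at 24 h (TRIzol library first, then both NucleoSpin libraries, here and in every triplet below), a log2 change of 6.70 (SE 0.47, adjusted p = 1.86e-08, edgeR). Adamtsl2, a fibrillin-binding ADAMTS-like protein, went from 0.11, 0.0366 and 0.103 to 4.61, 0.701 and 1.57 CPM (4.42, SE 0.68, adjusted p = 4.33e-05, edgeR). Both were near the detection limit in growing myoblasts, and no 24 h library overlapped the 0 h libraries. Adamts5, an aggrecanase, was at 1.99, 4.76 and 6.19 CPM and then at 26.6, 22.4 and 24.4 (2.57, SE 0.35, adjusted p = 4.73e-05, edgeR). Adamts16 was at 2.32, 0.768 and 0.789 CPM, then at 12, 4.47 and 3.98 (2.41, SE 0.46, adjusted p = 0.000736, edgeR). The procollagen-processing enzyme Adamts3 went the other way, from 4.97, 1.57 and 1.85 to 1.44, 0.263 and 0.196 CPM (-2.30, SE 0.36, adjusted p = 4.61e-05, edgeR). Every Adamts3 library at 24 h lay below every 0 h library.

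Among the MMPs several levels differed by extraction. Mmp12, the macrophage elastase, was at 0.0736, 0.476 and 0.257 CPM at 0 h and at 0.106, 8.98 and 9.67 at 24 h (4.46, SE 0.65, adjusted p = 3.33e-05, edgeR). Mmp10 (stromelysin 2, ENSMUSG00000047562) was at 0.699, 14.7 and 13.8 and then at 0.809, 60.9 and 65.6 CPM (1.91, SE 0.23, adjusted p = 3.57e-06, edgeR). Both were low in the TRIzol libraries at each time, where the log2 ratio of Mmp10 was 0.21 against 2.13 within the NucleoSpin libraries, and that of Mmp12 0.52 against 4.75. The TRIzol ratios rest on 1 library per time and few reads, 19 and 23 counts for Mmp10 and 2 and 3 for Mmp12. The macrophage markers stayed below 1.7 CPM in sum in every library. Mmp15, a membrane-type enzyme, rose in both extractions, from 30.1, 22.9 and 29.2 to 110, 93.2 and 93.8 CPM (1.85, SE 0.14, adjusted p = 1.25e-08, edgeR). Mmp2 (gelatinase A), which Mmp14 activates, was high in TRIzol, at 25.4, 6.59 and 7.72 CPM and then at 141, 19.2 and 19.8 (1.83, SE 0.25, adjusted p = 2.96e-05, edgeR).

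Adamts4 rose by 1.76 on the log2 scale, Adam19 by 1.27 and Adamts12 by 1.13. The other calls were smaller, upwards in Mmp28, Adamts7, Mmp23, Adamts1, Mmp11, Adamts14, Timp2, Mmp14 and Adamtsl5 (1.10 to 0.43) and downwards in Timp1 (-0.76) and Adam23 (-0.61), a brain-expressed ADAM with no zinc motif. The widely expressed sheddases were not called, with Adam10 at -0.01 (SE 0.11) and Adam17 at 0.02 (SE 0.07). Of the 23 calls 15 held whichever of the 6 libraries was left out, and Mmp23 held in none. With the replicate number as a block Mmp23, Adamtsl5 and Adam19 did not pass (adjusted p = 0.0108, 0.0111 and 0.0134, edgeR). Without the extraction term in the model 7 of the 46 members were called, with no share over all genes computed for that fit.

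The same time course gave 22 members up and 2 down in the libraries labelled siSMYD3#1 (background 12.7% and 12.7%) and 13 up and 3 down in siSMYD3#2 (background 9.11% and 9.88%). Median changes over the members were 0.57 and 0.51. Whether a member's time response differed from that in siCtrl was tested as an interaction. None passed for siSMYD3#1 (background 0.215%) or siSMYD3#2 (background 0.019%) in edgeR. Unadjusted p (edgeR) was under 0.05 for 7 and 9 of 46 members, against 1388 and 1585 of all 15820 genes. DESeq2 called 2 and 1 members, with no share over all genes computed. Adamts6 came nearest for siSMYD3#1, where its response was larger by 0.91 (SE 0.17, adjusted p = 0.0144, edgeR). Mmp10 had the lowest interaction p for siSMYD3#2, with a response smaller by 1.51 on the log2 scale (SE 0.33, adjusted p = 0.0616, edgeR).

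At 24 h the siRNA comparisons moved matrix enzymes in both directions. In the libraries labelled siSMYD3#1 7 members were higher than in siCtrl and 3 lower (background 2.91% and 2.94%), and in siSMYD3#2 1 was higher and 4 lower (background 1.66% and 2.04%). Adamts6 was higher and Mmp10 and Mmp15 were lower with either siRNA. Both comparisons use the same siCtrl libraries, so they are not independent, and their values are set side by side. No ADAM (0 of 12) was called with either, a share not far from the backgrounds above. The members' median was 0.21 for siSMYD3#1 and -0.12 for siSMYD3#2, with the median over all genes within 0.01 of 0. With NucleoSpin libraries alone 15 members were higher and 7 lower for siSMYD3#1, and 2 higher and 12 lower for siSMYD3#2, while without the extraction term 1 and 0 were called. The share of all genes called in these fits was not computed, so these counts have no background beside them.

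Adamts6 (ENSMUSG00000046169, chromosome 13, 104287835 to 104496695), an enzyme known for its part in heart development, was not called with time in siCtrl (-0.08, SE 0.12). At 24 h it was at 28.9, 46.7 and 47.9 CPM in siCtrl, 53.8, 119 and 126 in siSMYD3#1 and 68.7, 98.5 and 101 in siSMYD3#2. All 6 libraries labelled siSMYD3#1 or siSMYD3#2 lay above all 3 controls. The log2 differences were 1.23 (SE 0.12, adjusted p = 3.71e-06) and 1.14 (SE 0.12, adjusted p = 3.23e-05, both edgeR), and both calls held with any library left out. At 0 h they were 0.32 and 0.37 and did not pass (adjusted p = 0.204 and 0.201, edgeR).

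Mmp10 (chromosome 9, 7502352 to 7510240), whose promoter is printed above, was at 0.809, 60.9 and 65.6 CPM in siCtrl, 0.307, 22.1 and 19.8 in siSMYD3#1 and 0.51, 18.6 and 17.5 in siSMYD3#2. Within each extraction the libraries labelled siSMYD3#1 and siSMYD3#2 lay below siCtrl, although the ranges overlap when extractions are mixed. In TRIzol that order rests on 23 counts in siCtrl, 10 in siSMYD3#1 and 13 in siSMYD3#2. The log2 differences were -1.53 (SE 0.22, adjusted p = 0.000157) and -1.66 (SE 0.23, adjusted p = 0.000236, both edgeR). Mmp15 (chromosome 8, 95352268 to 95375080) was at 110, 93.2 and 93.8 CPM in siCtrl, 74, 71.5 and 57.4 in siSMYD3#1 and 91.1, 53.5 and 53.8 in siSMYD3#2. Its differences of -0.55 (SE 0.13, adjusted p = 0.00973) and -0.61 (SE 0.13, adjusted p = 0.00656, both edgeR) lay just inside the threshold, with no overlap between groups. Each was lost in 5 of 6 fits without 1 library, with adjusted p up to 0.0504 and 0.0611, and the siSMYD3#1 call was lost with the replicate number as a block (adjusted p = 0.0141, edgeR) and with RLE scaling (0.0103).

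Mmp12 was called for siSMYD3#2 and not for siSMYD3#1, and the siRNAs did not differ in it past the threshold (0.89, adjusted p = 0.415, edgeR). It stood at 0.106, 8.98 and 9.67 CPM in siCtrl, 0, 3.12 and 2.55 in siSMYD3#1 and 0, 2.30 and 0.692 in siSMYD3#2. The log2 differences were -1.70 (adjusted p = 0.0452) and -2.60 (adjusted p = 0.00878, both edgeR), and DESeq2 gave an adjusted p of 0.0683 for the latter. The siSMYD3#2 call was lost in 4 of 6 fits without 1 library (adjusted p up to 0.0933, edgeR). Adamtsl5 was lower in siSMYD3#2, at 21.3, 22.6 and 19.3 CPM against 27.9, 42.6 and 38.5 (-0.76, SE 0.13, adjusted p = 0.000895, edgeR). That call was lost in 1 of 6 such fits (adjusted p = 0.0107, edgeR). Its siSMYD3#1 libraries, at 27.6, 35.2 and 33.8, overlapped siCtrl.

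**Figure D2:**
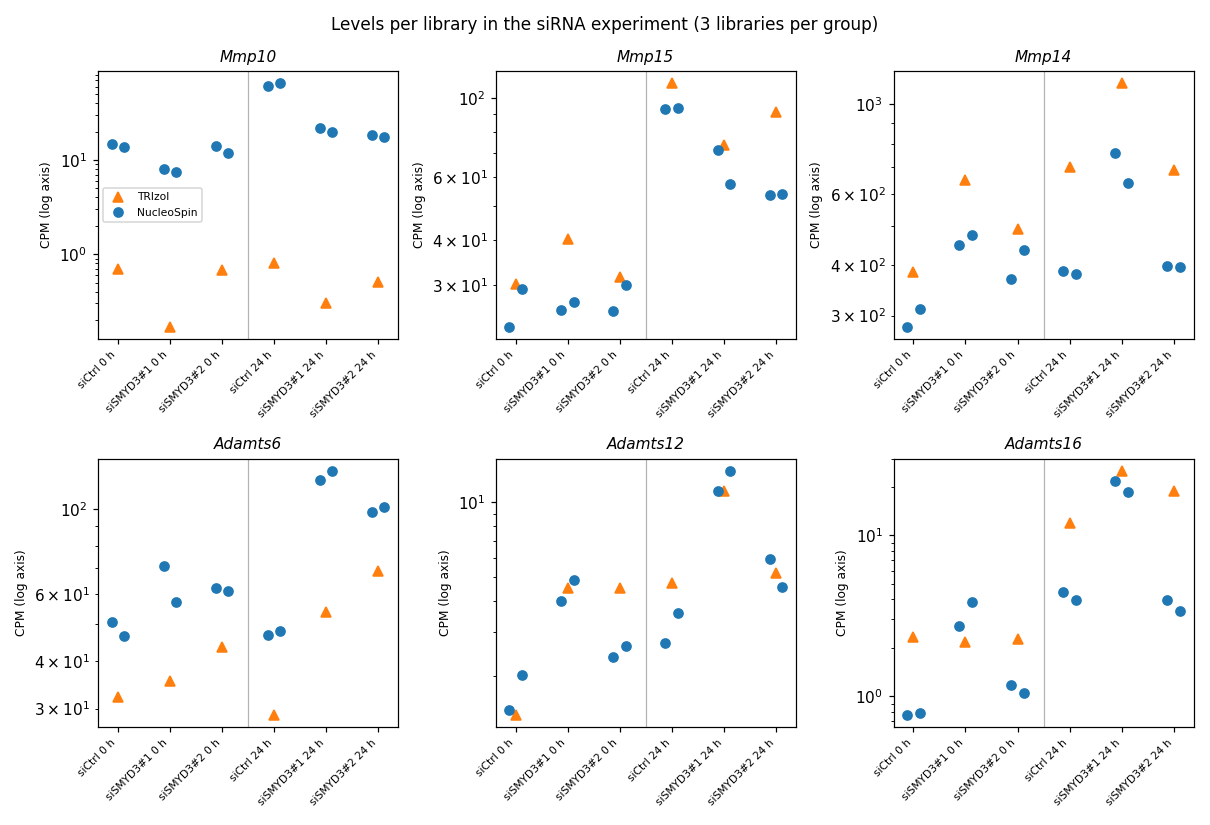
CPM on log axes for 6 members in the 18 siRNA libraries, with 0 h groups left of the line and 24 h groups right of it, triangles for TRIzol and circles for NucleoSpin libraries. Mmp10 is below 1 CPM in every TRIzol library, and for Adamts6 all libraries labelled siSMYD3#1 or siSMYD3#2 at 24 h lie above the siCtrl libraries.

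Other members were called higher in the libraries labelled siSMYD3#1 and not in siSMYD3#2. Adamts12 (chromosome 15, 11064790 to 11349231), which cleaves cartilage oligomeric matrix protein, was at 4.75, 2.72 and 3.59 CPM in siCtrl, 11.1, 11.1 and 13.4 in siSMYD3#1 and 5.22, 5.94 and 4.56 in siSMYD3#2. The siSMYD3#1 libraries stood apart from both other groups, by 1.69 (SE 0.23, adjusted p = 6.72e-05) from siCtrl and by 1.18 (SE 0.22, adjusted p = 0.0027, both edgeR) from siSMYD3#2. Adamts16 was at 12, 4.47 and 3.98 CPM in siCtrl and at 25.2, 21.7 and 18.5 in siSMYD3#1 (1.85, SE 0.41, adjusted p = 0.00796, edgeR). It did not differ between the siRNAs past the threshold (1.6, adjusted p = 0.0244, edgeR). Its call against siCtrl was lost in 5 of 6 fits without 1 library (adjusted p up to 0.0476, edgeR) and with the replicate block (adjusted p = 0.0122, edgeR). Adamts2, a procollagen N-proteinase, was at 42, 51.5 and 45.1 CPM in siCtrl and 67.2, 111 and 130 in siSMYD3#1 (1.09, SE 0.16, adjusted p = 0.000263, edgeR).

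Mmp14, the activator of Mmp2, was at 701, 386 and 380 CPM in siCtrl, 1130, 756 and 638 in siSMYD3#1 and 687, 398 and 396 in siSMYD3#2. Within each extraction every siSMYD3#1 library exceeded both other groups, by 0.80 (SE 0.12, adjusted p = 0.000138) over siCtrl and by 0.78 (SE 0.12, adjusted p = 0.000432, both edgeR) over siSMYD3#2. Mmp11 (stromelysin 3) rose by 0.85 (SE 0.18, adjusted p = 0.00477, edgeR), with log2 ratios of 0.18 in TRIzol and 1.14 in NucleoSpin. The call was lost in 4 of 6 fits without 1 library (adjusted p up to 0.0304, edgeR). Mmp11 overlaps the opposite-strand gene Chchd10 by 155 exon bases, and the counting strand is not given in the sources used here. The same limit holds for 14 members in all, among them Mmp12, Mmp28, Adam19, Adamts4, Adamts7 and Adamts9. The siRNAs were also compared with each other, where 6 members were higher in siSMYD3#1 and 0 lower (background 3.36% in either direction). These were Adamts12, Mmp28, Mmp11, Adamts2, Mmp14 and Adamtsl5 (1.18 to 0.59), and only Mmp14 held with any library left out.

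At 0 h, before serum withdrawal, 2 members were higher in the libraries labelled siSMYD3#1 and 0 lower (background 0.575% and 0.853%). Adamts12 was at 1.40, 1.46 and 2.02 CPM in siCtrl and 4.53, 4.01 and 4.89 in siSMYD3#1 (1.41, SE 0.24, adjusted p = 0.00224, edgeR), without overlap. Mmp14 was at 384, 281 and 311 CPM and at 651, 448 and 476 (0.68, SE 0.12, adjusted p = 0.00226, edgeR), also without overlap. Both calls were lost without some single library (adjusted p up to 0.0165 and 0.0267, edgeR). For siSMYD3#2 at 0 h edgeR called 0 members (background 0.316% up and 0.215% down). There 7 of 46 members had an unadjusted p under 0.05 (edgeR), against 1596 of all 15820 genes. DESeq2 called 1 member, with no share over all genes computed.

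The inhibitors changed in opposite senses. Timp1 in siCtrl fell from 344, 235 and 258 CPM to 148, 164 and 170 (-0.76, SE 0.12, adjusted p = 3.82e-05, edgeR), and Timp2 rose from 615, 482 and 573 to 1010, 780 and 812 (0.63, SE 0.11, adjusted p = 0.000117, edgeR). Neither gene's 24 h libraries overlapped its 0 h libraries. At 24 h Timp1 was higher in siSMYD3#1, at 306, 206 and 215 CPM (0.56, SE 0.12, adjusted p = 0.00358, edgeR). Timp2 was lower there, at 845, 537 and 501 CPM (-0.49, SE 0.11, adjusted p = 0.0049, edgeR). In siSMYD3#2 Timp1 stood at 227, 195 and 188 CPM and Timp2 at 865, 555 and 533, with differences of 0.32 and -0.44 that did not pass (adjusted p = 0.0943 and 0.0153, edgeR). Leaving out 1 library ended the siSMYD3#1 call in 2 of 6 fits for Timp1, those without either TRIzol library, and in 5 of 6 for Timp2.

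Timp3, the inhibitor that stays bound to matrix, differed in level between the extractions. It was at 98.1, 25.9 and 25.5 CPM in siCtrl at 0 h and 44.2, 24.3 and 23.3 at 24 h, log2 ratios of -1.15 in TRIzol and -0.13 in NucleoSpin. For siSMYD3#1 against siCtrl at 24 h the extractions gave like values, 0.86 in TRIzol and 0.76 in NucleoSpin (adjusted p = 0.000762 within NucleoSpin, edgeR). Over all libraries that difference did not pass in edgeR (0.80, SE 0.25, adjusted p = 0.0565) and passed in DESeq2 (adjusted p = 0.00759). For siSMYD3#2 against siCtrl at 24 h the ratio was 0.52 in TRIzol and -0.74 in NucleoSpin (adjusted p = 0.00253 within NucleoSpin, edgeR), and over all libraries it did not pass (-0.29, adjusted p = 0.567, edgeR). Timp3 shares 1733 exon bases with Syn3 on the opposite strand. Timp4 never exceeded 24 counts and was not tested in the siRNA experiment.

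**Figure D3:**
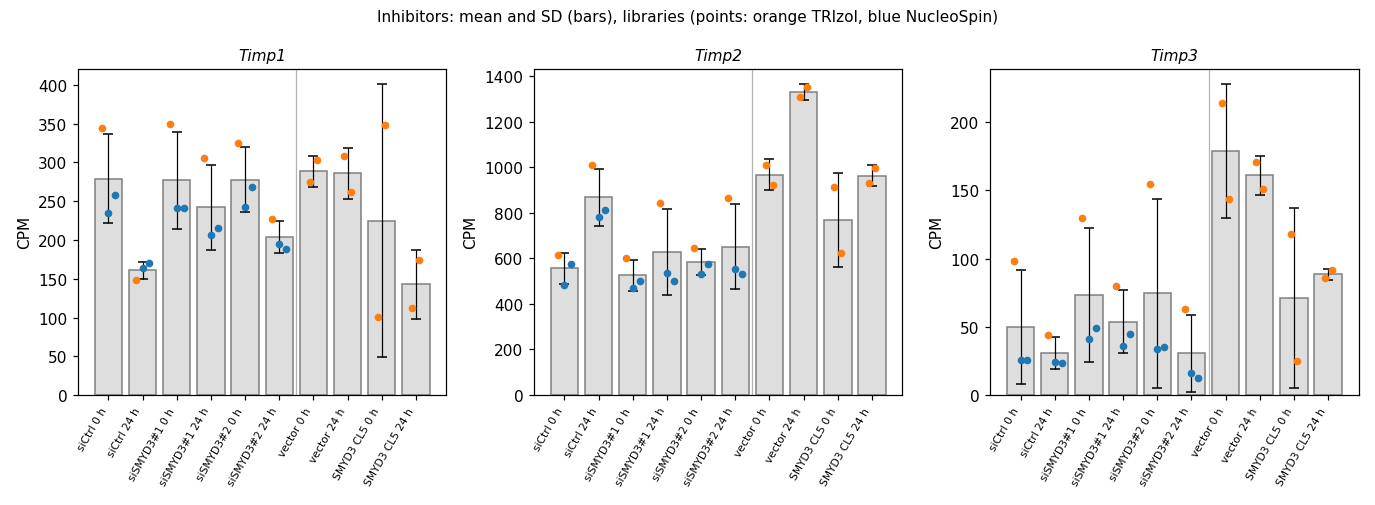
CPM of Timp1, Timp2 and Timp3 in all 10 groups, with bars for the mean, error bars for the SD and points for the libraries (orange TRIzol, blue NucleoSpin). Timp1 is lower and Timp2 higher at 24 h than at 0 h in siCtrl, and within each siRNA group Timp3 is highest in the TRIzol library.

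In SMYD3 CL5 against vector the one called difference was the near loss of Mmp16, a membrane-type MMP (chromosome 4, 17852893 to 18119145). Reads were 112 and 105 counts in vector at 0 h and 2 and 2 in SMYD3 CL5, then 263 and 297 against 1 and 1 at 24 h. Both SMYD3 CL5 libraries were far below both vector libraries at each time, and in the siRNA experiment Mmp16 was at 1.44 to 7.46 CPM. Scaled by depth Mmp16 was 58.5-fold lower at 0 h (95% exact binomial interval 22.5 to 217) and 198-fold lower at 24 h (54.6 to 1640), intervals that cover counting error only. It was the only member called, 1 down and 0 up at 24 h (adjusted p = 0.00125, edgeR, background 0.376% up and 0.589% down) and 1 down and 0 up at 0 h (adjusted p = 0.00196, edgeR, background 0.465% and 0.606%).

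The calls depend on few libraries. At 24 h that of Mmp16 was lost with any of the 4 left out (adjusted p = 0.0134 to 0.0246, edgeR), and at 0 h without either vector library (adjusted p up to 0.0254, edgeR). At 0 h more members were called without either SMYD3 CL5 library, the second being the library with 498 CPM of differentiation markers. Such fits leave 1 library in a group. The share of all genes called in them was not computed, so this rise is not read as a result about the members. SMYD3 CL5 is 1 clone, and the study's methods describe sub-cloning of the vector cells as well. Differences that come from the cloning of either line therefore cannot be told apart from those that come from SMYD3.

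Adamts3 and Adamts9 were near 0 in the clone, and Adamts12 and Adamtsl1 had low values there, none of them past the test. Adamts3 had 257 counts over both vector libraries and 4 over both SMYD3 CL5 libraries at 0 h, 69.3-fold lower (26.7 to 256, adjusted p = 0.0153, edgeR), and 102 against 1 at 24 h, 72.2-fold lower (12.7 to 2880). Adamts9 had 0 counts in all 4 SMYD3 CL5 libraries against 38 in vector at 0 h and 56 at 24 h, at least 6.99-fold and 5.66-fold lower with a floor of 3 counts per library. Adamts12 was at 7.23 and 6.30 CPM in vector at 24 h and 1.12 and 1.24 in SMYD3 CL5 (-2.52, adjusted p = 0.0368, edgeR). Adamtsl1 was at 1.93 and 1.87 CPM against 0.266 and 0.138 (-3.12, adjusted p = 0.0158, edgeR). All 4 genes had vector libraries above both SMYD3 CL5 libraries at either time. The share of all genes separated in this way was not computed, so that order has no background beside it.

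Adamts17 was at 2.35 and 2.99 CPM in vector and 7.69 and 18.7 in SMYD3 CL5 at 24 h (2.29, adjusted p = 0.0453, edgeR). Mmp10 was at 1.77 and 1.46 CPM against 0.178 and 0.368 (-2.65, adjusted p = 0.0479, edgeR). For both, the libraries of the lines did not overlap at 24 h, with no share over all genes computed. Timp1 was at 275 and 303 CPM in vector at 0 h and 101 and 349 in SMYD3 CL5, and at 24 h at 309 and 262 against 112 and 174 (-0.999, adjusted p = 0.487, edgeR). Timp4 was at 0.0628 and 0.073 CPM against 0.606 and 0.589 at 0 h (3.07, adjusted p = 0.0458, edgeR), the highest Timp4 values of the series. Unadjusted p (edgeR) was under 0.05 for 17 of 49 members at 0 h and 12 at 24 h. Over all 17835 genes it was so for 3258 and 2488. DESeq2 called 6 and 8 members, with no share over all genes computed.

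**Figure D4:**
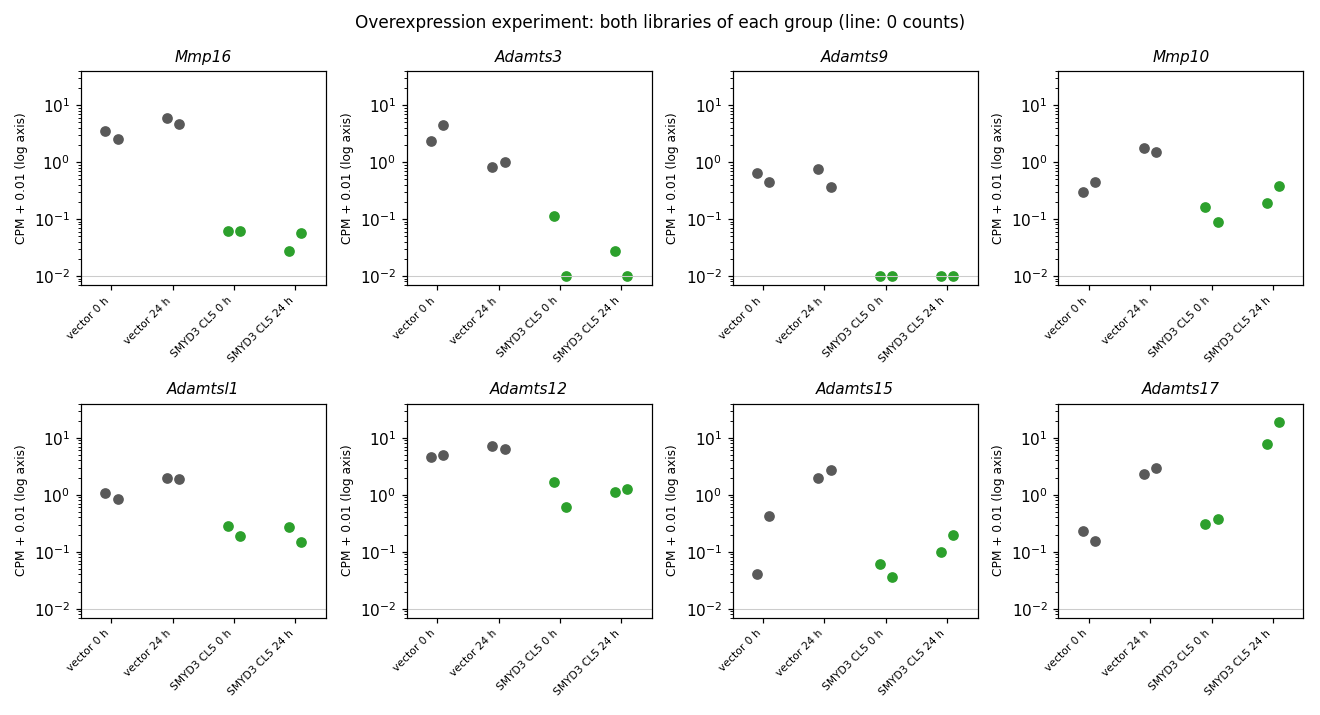
CPM plus 0.01 on log axes for 8 members in both libraries of each overexpression group, grey for vector and green for SMYD3 CL5, with the line at 0 counts. Mmp16, Adamts3 and Adamts9 lie at or near the line in SMYD3 CL5 at both times, while Adamts17 is higher in it at 24 h.

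Over time neither line gave a call in edgeR, nor did the difference of their time responses (background 0%, 0% and 0% of 17835 genes). Unadjusted p (edgeR) was under 0.05 for 12 of 49 members in vector, 7 in SMYD3 CL5 and 1 in the interaction. Over all 17835 genes it was so for 1256, 1137 and 312. DESeq2 called 6 members in vector and 5 in SMYD3 CL5, with no share over all genes computed. Adamts5 was at 8.63 and 21.1 CPM in vector at 0 h and 44.7 and 62.8 at 24 h, and at 13.9 and 10.2 and then 90.9 and 44.8 in SMYD3 CL5. Adamts16 was at 2.64 and 2.07 and then 11.9 and 10.6 CPM in vector, and at 2.42 and 2.95 and then 9.41 and 11.1 in SMYD3 CL5. For both genes the 24 h libraries of each line lay above its 0 h libraries, as in siCtrl, with no call. How many of all genes did so was not computed. The members' median change was 0.46 in vector and 0.03 in SMYD3 CL5.

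Proteins that act with these enzymes or are cut by them were read from lists of known partners. These lists were also chosen with earlier results of these data known. Of 17 tested activators, cofactors and inhibitors 7 rose and 0 fell with time in siCtrl (background 14.6% and 14.8%), led by the Adam10 partner Tspan33 (3.39, SE 0.46, adjusted p = 1.25e-05, edgeR) with Rhbdf2, which carries Adam17 to the surface, at 1.10. At 24 h 3 were higher and 3 lower in siSMYD3#1 (background 2.91% and 2.94%). Tspan33 was among the lower (-2.57, adjusted p = 0.000893, edgeR), and the proprotein convertase Pcsk6 among the higher (1.06, adjusted p = 0.00377, edgeR). In siSMYD3#2 0 of 17 were called by edgeR (background 1.66% and 2.04%). There Tspan33 was at -1.70 (adjusted p = 0.0186, edgeR). In SMYD3 CL5 against vector 1 of 17 fell, Pcsk6, at each time (background 0.589% down at 24 h and 0.606% at 0 h).

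Of 21 tested ADAM-shed substrates 5 rose and 4 fell with time in siCtrl (background 14.6% and 14.8%), shares not far from those of all genes. The Notch ligand Dll1 rose by 4.14 (SE 0.27, adjusted p = 5.98e-09, edgeR), and the growth factor precursors Areg, Ereg and Hbegf fell with the chemokine Cx3cl1 (-0.996 to -1.69). Dll1 was lower at 24 h with siSMYD3#1 (-1.53, SE 0.24, adjusted p = 0.000292) and siSMYD3#2 (-1.24, SE 0.24, adjusted p = 0.00295, both edgeR). Besides Dll1, Cd44 was lower and Nrg1 and Il6ra were higher in siSMYD3#1. Of the 21 substrates 2 were thus higher and 2 lower there (background 2.91% and 2.94%). In siSMYD3#2 0 were higher and 1 lower (background 1.66% and 2.04%).

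Of 15 tested matrix substrates 3 rose and 0 fell with time in siCtrl (background 14.6% and 14.8%). At 24 h 9 of the 15 were higher and 1 lower in the libraries labelled siSMYD3#1 (background 2.91% and 2.94%). Their median was 0.97 against 0.00 over all genes. Col1a1 was higher by 2.1 (SE 0.28, adjusted p = 0.00024, edgeR) and Fbn1 (fibrillin 1) by 1.64 (SE 0.24, adjusted p = 0.000516, edgeR). In siSMYD3#2 the same genes were at 0.10 (adjusted p = 0.881) and 0.83 (adjusted p = 0.0448, both edgeR). There 1 substrate was higher and 2 lower (background 1.66% and 2.04%). Fn1 (fibronectin) was higher with either siRNA, by 0.77 and 0.69, and Lama2, a laminin chain of the muscle basement membrane, lower by 1.35 and 0.86 on the log2 scale. The fibroblast markers Pdgfra, Thy1, Dpt and Tcf21 summed to 17.3 to 20.4 CPM in siSMYD3#1 at 24 h, 10.6 to 12.6 in siCtrl and 8.31 to 11.2 in siSMYD3#2. At 0 h the sum was already 9.27 to 11.2 CPM in siSMYD3#1 and 4.05 to 7.35 in siCtrl. Only 2 of the 4 fibroblast markers were tested, and edgeR called 0 of them for siSMYD3#1 against siCtrl at 24 h. The part of these markers in the matrix gene values was not tested. In SMYD3 CL5 the proteoglycan Bgn was lower at 24 h and 0 h (-5.01 and -5.54, adjusted p = 0.00161 and 0.00165, edgeR), and Lama2 was higher at 0 h (3.70, adjusted p = 0.00782, edgeR). These were the only calls among 16 tested substrates (background 0.376% up and 0.589% down at 24 h, 0.465% and 0.606% at 0 h).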

How the data were processed

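The deposited files hold raw read counts per gene, made by the authors from stranded TruSeq libraries with FastQC 0.11.5, HISAT2 2.1.0 and featureCounts (Subread 1.6.3) on GRCm38, per the submitters' processing notes. The strand setting, the handling of multimapping reads and the annotation release are not given in the sources used here. Of 55341 listed genes 54495 were in GENCODE M21 and 846 were not.

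Counts were tested with edgeR 4.0.16 (R 4.3.3, limma 3.58.1; TMM scaling, filterByExpr, robust quasi-likelihood F test, Benjamini-Hochberg adjustment over all genes tested, threshold 0.01), with 18 siRNA libraries in 6 groups and extraction as covariate, and 8 overexpression libraries in 4 groups without one. A fit of simulated counts with known changes was used to test the code. CPM are TMM-scaled. DESeq2 1.42.0 and the other alternatives are in the closing section. No 2 libraries were identical.

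Named by plan are members past the threshold, up to 12 per comparison by size of change, the TIMPs and the 5 most abundant members, with the others summarised. Some values outside this plan are also given, such as those of Adam17 and Adamts15. In the overexpression experiment the plan also did not cover the values of Adamts3, Adamts5, Adamts9, Adamts12, Adamts16, Adamts17, Adamtsl1 and Mmp10, which were not called there. Replicate numbers, taken from the study's sample sheet, are shared between siRNA groups. Libraries of the same number correlated at 0.412 to 0.851 in their deviations from group means, but at 0.017 to 0.178 within NucleoSpin. Members and lists were chosen with earlier results of these data known.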

Additional observations from a re-analysis of the deposited data

How the results depend on the processing

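Counts of members called moved by over 1.5 times in these settings, where the cause was not tested unless stated. The share of all genes called was not computed for any alternative setting here, so the member counts have no background beside them. Without the extraction term they were 7 for siCtrl over time, 9 for siSMYD3#1, 4 for siSMYD3#2, 1 for siSMYD3#1 and 0 for siSMYD3#2 against siCtrl at 24 h, 0 for siSMYD3#1 at 0 h and 0 between the siRNAs. With NucleoSpin libraries alone they were 22 and 14 at 24 h, 7 for siSMYD3#1 at 0 h, 18 between the siRNAs and 5 and 4 for the interactions. Without the low-count filter they were 21 and 11 at 24 h, 8 and 2 at 0 h, 16 between the siRNAs, 6 and 5 for the interactions, 10 and 10 for SMYD3 CL5 against vector at 24 h and 0 h, and 6 and 6 for vector and SMYD3 CL5 over time. DESeq2 gave 4 and 1 at 0 h, 11 between the siRNAs, 2 and 1 for the interactions, 8 and 6 for SMYD3 CL5 at 24 h and 0 h, and 6 and 5 over time. A fit of all 26 libraries gave 9, 11, 6 and 3 for the same 4 overexpression comparisons. A threshold of 0.05 gave 11 between the siRNAs, 2 for the siSMYD3#1 interaction and 7 and 5 for SMYD3 CL5. Requiring a doubling or halving left 15 for siCtrl over time, 5 and 3 at 24 h, 1 at 0 h and 1 between the siRNAs.

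With the replicate number as a block, 20 members were called for siCtrl over time (17 up, 3 down) and 8 for siSMYD3#1 at 24 h (6 up, 2 down). Mmp23, Adamtsl5 and Adam19 over time and Mmp15 and Adamts16 at 24 h lost their calls, and no other member's call changed under the block. Activators and substrates were not run under it.

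Leaving out 1 library gave 17 to 19 (23 with all) for siCtrl over time, 18 to 25 for siSMYD3#1, 8 to 13 for siSMYD3#2, 6 to 10 and 2 to 6 at 24 h, 0 to 2 and 0 to 0 at 0 h, 1 to 10 between the siRNAs, 0 to 1 and 0 to 2 for the interactions, 0 to 0 and 0 to 9 for SMYD3 CL5 at 24 h and 0 h, and 0 to 7 for SMYD3 CL5 over time. The 9 and the 7 came without the first SMYD3 CL5 library at 0 h. Leaving out 1 library of 2 assumes that the lone library varies like the other groups. In the overexpression experiment the numbers did not pair the libraries (-0.097 to 0.145), and the block changed no count there. With 2 libraries per group, overexpression tests had 4 residual degrees of freedom, which limits what they can call. No direction of a called member reversed in these settings for siCtrl over time or for the comparisons between treatments. Single members over time in siSMYD3#1 and siSMYD3#2 were not followed through them.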
